A study of Mus musculus with 2 samples.

Results

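The major urinary proteins (Mup) are small secreted lipocalins, proteins that fold into a barrel around a greasy ligand, and the genes were followed here in inguinal white fat, which lies under the skin of the groin. Members were all probes in the authors' deposited table whose gene symbols include Mup plus a number, which gave 13 of its 869 rows and 13 of the 35556 probes (transcript clusters, the array's gene-level units) of the value table. The fat came from male mice about 8 weeks old on normal chow at room temperature, with wild-type (WT) mice as the control and H4-TG transgenic mice as the other group; the sources used here do not say what H4 stands for, which promoter drives the transgene, or which strain was used. Each array took a pool of RNA from 4 animals of a genotype, with 1 array for WT and 1 for H4-TG, so each group is 1 value per probe, there is no spread between replicates, and no test was run. Members were also chosen by the measured fold ratio, because the authors' table lists only probes at least 1.5-fold higher in H4-TG. Every member is thus higher there by selection, and that direction is a description and not a finding.

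In mice, adult males secrete these proteins in large amounts from the liver into blood and urine, where they carry volatile scent molecules and act as scent signals themselves. Liver expression is known to depend on growth hormone acting through STAT5 and on glucocorticoid and thyroid hormones. Some Mup genes are also expressed in white fat, and circulating Mup1 is known for effects on glucose and lipid metabolism. The genes lie in tandem on chromosome 4 and many copies are nearly identical, which limits what a hybridization probe can separate.

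RefSeq for GRCm38 lists 22 protein-coding genes named Mup plus a number, and the 13 probes name 19 of them after symbols were brought up to date. Gm2083 in the authors' table is now Mup13, LOC100048884 is Mup18 and LOC100861909 is Mup22. Mup3, Mup4 and Mup8 are named by no probe of the table and have no value here. Of the 42 RefSeq accessions attached to the probes, 40 matched a current gene. Symbols in this family have been reused. The symbol Mup6, for example, is also an older name of Mup9, Mup16, Mup18 and Mup19, so a probe with that symbol and no RefSeq accession is not firmly tied to 1 gene.

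To show how alike the copies are ahead of the transcript, the 250 bases before the annotated transcript start are given for 4 genes, from RefSeq promoters of GRCm38.p6, written 5′ to 3′ with the TATA motif TATATAA in capitals. Probes read transcripts, so likeness of these bases does not show which copies a probe can separate. Mup2 and Mup19 are carried by every bright probe described below, whereas Mup6 and Mup21 each have a dim probe with a single symbol.
Mup2, chr4:60139857-60140106, minus strand: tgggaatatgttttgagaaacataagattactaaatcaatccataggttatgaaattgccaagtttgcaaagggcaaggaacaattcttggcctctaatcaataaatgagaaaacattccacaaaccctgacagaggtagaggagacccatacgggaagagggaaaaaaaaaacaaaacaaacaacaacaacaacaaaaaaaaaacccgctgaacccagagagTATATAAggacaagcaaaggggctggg
Mup19, chr4:61782225-61782474, minus strand: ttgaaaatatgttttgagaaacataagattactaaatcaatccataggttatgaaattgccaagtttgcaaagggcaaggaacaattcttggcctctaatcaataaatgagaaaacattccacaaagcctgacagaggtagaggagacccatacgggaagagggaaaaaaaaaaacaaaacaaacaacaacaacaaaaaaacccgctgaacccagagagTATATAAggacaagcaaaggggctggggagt
Mup6, chr4:60003231-60003480, plus strand: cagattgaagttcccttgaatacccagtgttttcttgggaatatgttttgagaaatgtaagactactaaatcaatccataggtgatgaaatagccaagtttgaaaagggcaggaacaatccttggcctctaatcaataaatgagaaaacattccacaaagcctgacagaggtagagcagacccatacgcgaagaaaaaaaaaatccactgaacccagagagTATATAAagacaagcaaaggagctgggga
Mup21, chr4:62150842-62151091, minus strand: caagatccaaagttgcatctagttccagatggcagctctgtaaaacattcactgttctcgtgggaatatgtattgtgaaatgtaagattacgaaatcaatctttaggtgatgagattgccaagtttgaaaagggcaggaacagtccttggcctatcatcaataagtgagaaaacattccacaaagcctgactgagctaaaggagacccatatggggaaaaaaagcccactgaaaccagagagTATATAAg

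Promoter windows of 300 bases, 250 before and 50 after the start, were at hand for 14 of the 22 Mup genes: 10 named by multi-symbol probes, 2 with a single-symbol probe (Mup6 and Mup21) and 2 without a probe (Mup3 and Mup4). Between the windows of the 10, identity ran from 89.9% to 99.0% over 45 pairs, with a median of 96.5%. Between one of these and one of the other 4 it ran from 73.7% to 88.6%, with a median of 80.8% over 40 pairs. The top of that range came from Mup7, whose window overlapped those of Mup6 and Mup4 over 201 and 199 columns only. Without Mup7 the highest was 83.8%, between Mup6 and Mup14. The Mup2 window matched that of Mup19 at 96.7%, of Mup6 at 81.7% and of Mup21 at 74.4%. Mup21 stood nearest to Mup3, at 92.9%, and Mup6 nearest to Mup4, at 92.3%. These figures describe the reference sequence and share neighbouring genes, so no test was made.

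**Figure D1:**
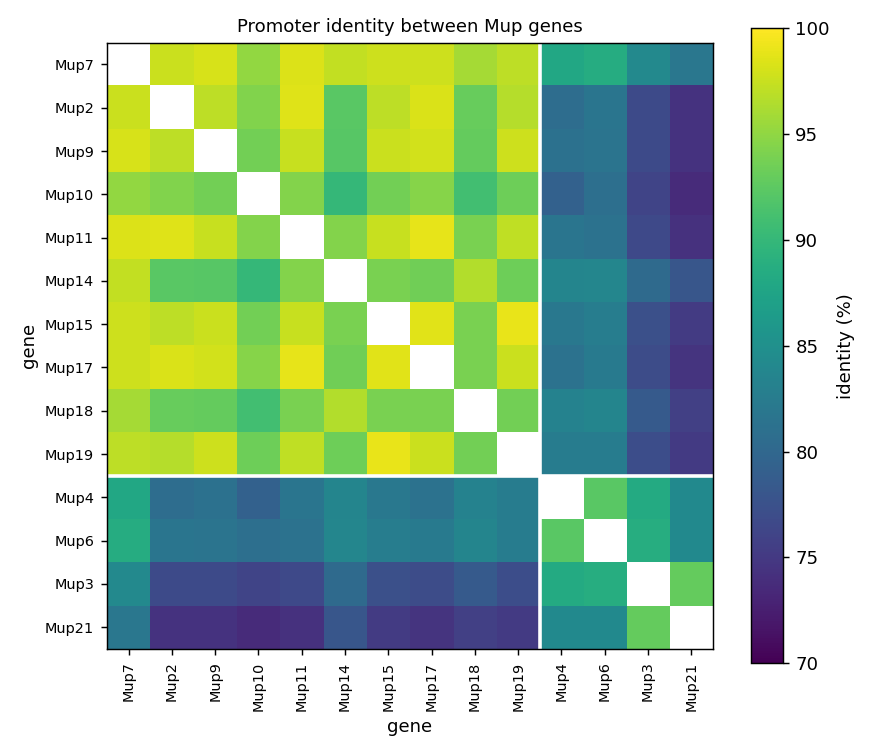
Identity in percent between the RefSeq promoter windows of 14 Mup genes (colour scale), with genes named by multi-symbol probes before the white line and the others after it. The 10 genes before the line form a block from 89.9% to 99.0%, and pairs across the line lie between 73.7% and 88.6%.

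The motif TATATAA, searched on both strands, was present in 13 of the 14 windows and in 3.24% of all 32851 mouse promoter windows of that length. Mup7 was the window without it. The annotated starts are not in register, since the motif began 31 bases before the start in Mup19 and 2 in Mup11. In Mup14 that count was -12, so the motif began after the start. The Mup7 window overlapped the others over 163 to 226 aligned columns only. Whether Mup7 has the motif outside its window was not tested. The STAT5 motif TTCNNNGAA was in 0 of the 14 and in 8.3% of all windows. The element TGTTCT, which the glucocorticoid receptor recognises, was in Mup3 and Mup21 only, and in 19% of all windows. A longer run of 27 bases, gcctctaatcaataaatgagaaaacat, was the longest that the 10 genes of the multi-symbol probes share. Mup6 holds it too, whereas Mup3, Mup4 and Mup21 do not, and it stood in no promoter window outside the Mup genes. Each match is only a description of the reference, and a motif missing from a window says only that its letters are not there.

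The 13 probes fell into 9 bright ones, with a mean log2 signal of both arrays of 9 or more, and 4 dim ones. The bright probes were the same as the multi-symbol probes, each naming 8 to 14 genes, and the dim probes were the same as the single-symbol ones. Brightness and the number of gene names therefore cannot be told apart among these members. How bright a probe is also depends on its own sequence and on how many gene copies it catches, so its level was not set against that of another probe as a level of expression.

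**Figure D2:**
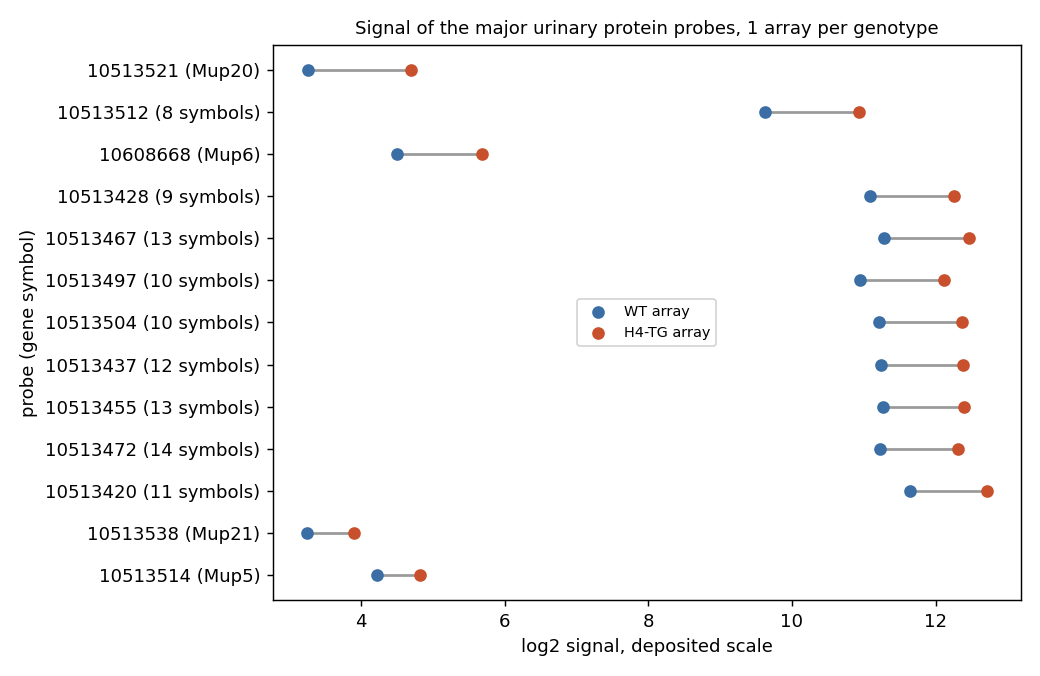
Deposited log2 signal of the 13 Mup probes on the WT array (blue) and the H4-TG array (orange), 1 array per genotype, with probes ordered by the difference between them and labelled with their gene symbol or number of symbols. The 9 multi-symbol probes lie between 9.62 and 12.71 and the 4 single-symbol probes between 3.24 and 5.68.

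Among the multi-symbol probes, the median log2 signal was 11.22 in WT fat and 12.37 in H4-TG fat. The log2 difference, H4-TG minus WT, was between 1.07 and 1.31, with a median of 1.16, which is 2.24-fold. The genes behind that value stand next to each other in the cluster, from Mup7 to Mup19 with only Mup8 missing, and the probes cannot divide it among them. Every bright probe names Mup1, Mup2, Mup9, Mup15, Mup16, Mup19 and Mup22, and Mup12 and Mup14 stand on 8 of the 9. Mup13 stands on 1 under that symbol and on 4 others as Gm2083. Mup10 and Mup11 stand on 4 each, Mup7 and Mup18 on 3 each and Mup17 on 2.

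Probe 10513420 was the brightest, with a log2 signal of 11.64 on WT and 12.71 on H4-TG. It names 11 genes, among them Mup7 and Mup13. The authors' table, which states no genome build for its positions, places it from 60079342 to 60083237 of chromosome 4. It had the smallest difference of the bright probes, 1.07, or 2.09-fold. Probe 10513512 was the dimmest of the bright ones, at 9.62 on WT and 10.93 on H4-TG. Its stretch, 61179885 to 61180018, is only 134 bases long, and it names 8 genes. It had the largest difference of the bright probes, 1.31, or 2.49-fold.

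The remaining 7 bright probes kept within a narrow band, with differences of 1.10 to 1.17. Probe 10513467 had a signal of 11.28 on WT and 12.46 on H4-TG, and probe 10513428 had 11.09 and 12.26. Probe 10513437 had 11.24 and 12.39. Probe 10513437 is assigned to a stretch of 658 kb that covers many gene copies, and it alone lacks Mup12. Probe 10513455 had 11.27 and 12.40, and probe 10513472, which names 14 genes over 754 kb, had 11.22 and 12.32. Probe 10513504 had 11.21 and 12.37, and probe 10513497 had 10.95 and 12.12.

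The closeness of these differences is not a replicate check. Any pair of the 9 bright probes shared at least 7 gene symbols, and up to 12; 34 of the 36 pairs shared a public transcript identifier, and 6 pairs had overlapping positions. The number of shared identifiers varied, from 0 between probes 10513420 and 10513467 to 14 between probes 10513467 and 10513504. The 9 probes thus name largely the same genes, and they were read in the same 2 RNA pools.

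**Figure D3:**
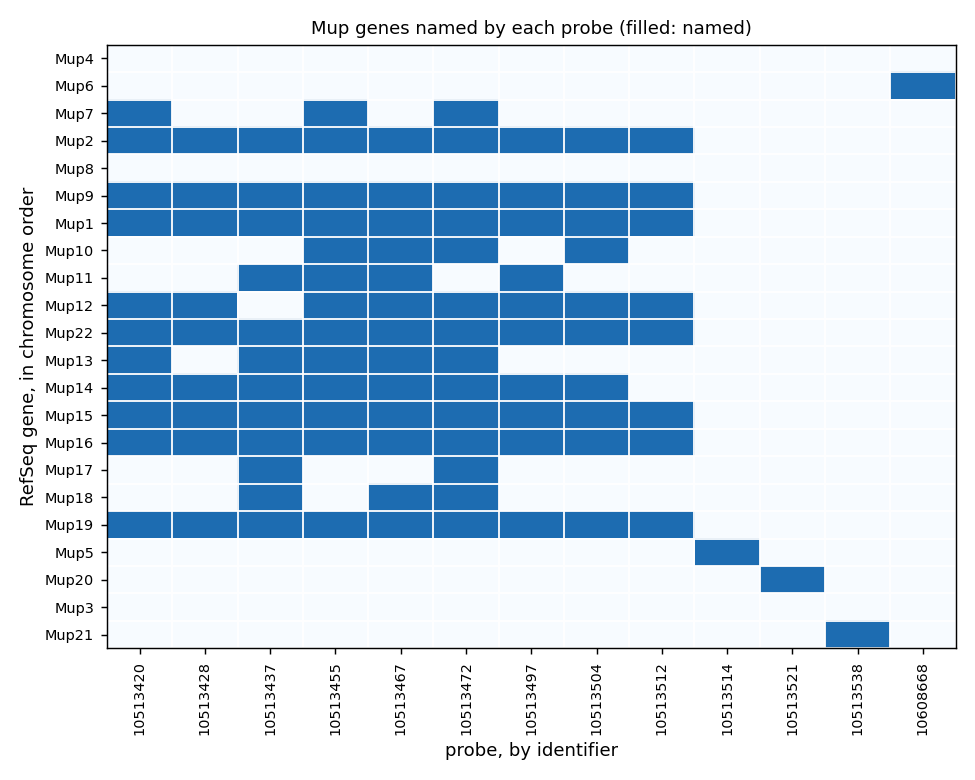
Which of the 22 protein-coding Mup genes of RefSeq, in chromosome order from top to bottom, each of the 13 probes names in the authors' table after symbols were brought up to date (filled cells). The first 9 columns share 7 genes in common, each of the last 4 names 1 gene, and Mup3, Mup4 and Mup8 have no filled cell.

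The single-symbol probes were dim on both arrays. All 4 lay below the lower quartile of the WT array, 4.88, and 3 of the 4 below that of the H4-TG array, 4.92. No detection call or background signal was used here, so whether these probes measured their genes above background was not tested.

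Mup20, known as darcin, is the male scent protein that attracts females. Its probe, 10513521, had a signal of 3.26 on WT and 4.70 on H4-TG, a difference of 1.44 or 2.71-fold, and its position in the authors' table runs from 61711268 to 61715177 of chromosome 4. It had the largest difference of all 13 members and one of the lowest signals. The probe annotated to Mup6, 10608668, had 4.49 on WT and 5.68 on H4-TG, a difference of 1.18. It has no position in the authors' table and carries only Ensembl transcript identifiers. Mup5, known from salivary glands, had 4.22 on WT and 4.83 on H4-TG by probe 10513514, at 61492353 to 61496214, a difference of 0.61. Mup21, the last gene of the cluster, had 3.24 and 3.90 by probe 10513538, at 61808597 to 61811897, a difference of 0.66. Mup5 and Mup21 are thus the members just inside the limit of the authors' table, with ratios there of 1.52 and 1.58. Any Mup probe outside that table carries no gene name in the files used here. The table is also not complete above its limit, since 1518 probes of the array reached 1.5-fold and it holds 869 rows. The 4 differences ran from 0.61 to 1.44 with a median of 0.92 (1.89-fold), a wider range than that of the bright probes.

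Set against the whole array, 11 of the 13 Mup probes reached 2-fold in H4-TG over WT, where the share over all 35556 probes was 0.892% (317 probes). The choice of members used this same contrast, so nothing is read from that count. At 1.5-fold all 13 passed by construction, against 4.27% of all probes. The median log2 difference over all probes was -0.01, with the central 90% between -0.71 and 0.55.

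The spread of differences depended on signal. Over the 1160 probes with a mean signal within the range of the bright Mup probes, the central 90% of differences lay between -0.52 and 0.40. Over the 6631 probes within the range of the dim ones it lay between -0.94 and 0.68. Every member lies above 0.40 by selection, since the authors' table starts at 1.5-fold, so the bright probes' place there is no finding. Among the dim ones, Mup20 and Mup6 were above 0.68, whereas Mup5 (0.61) and Mup21 (0.66) were below it. In the dim range 1.37% of probes were at least 2-fold and 7.31% at least 1.5-fold higher.

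Among the 3977 probes with a mean signal of 9 or more, 20 had a 2-fold or larger excess in H4-TG, or 0.503%, and 1.61% reached 1.5-fold. The 9 bright Mup probes were among these 20. The other 11 were annotated to Myl1, Postn, Atp2a1, Eno3, Fn1, Ckm, Acta1, Tpm1, Myh4, Tnnt3 and Efemp1. Most of these are genes of the muscle contractile apparatus and its energy supply, and Postn, Fn1 and Efemp1 encode matrix proteins. The members were chosen on this contrast, so their share of the 20 is a description alone. The brightest of the other 11 was that of the myosin light chain Myl1, with a mean of 10.64.

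**Figure D4:**
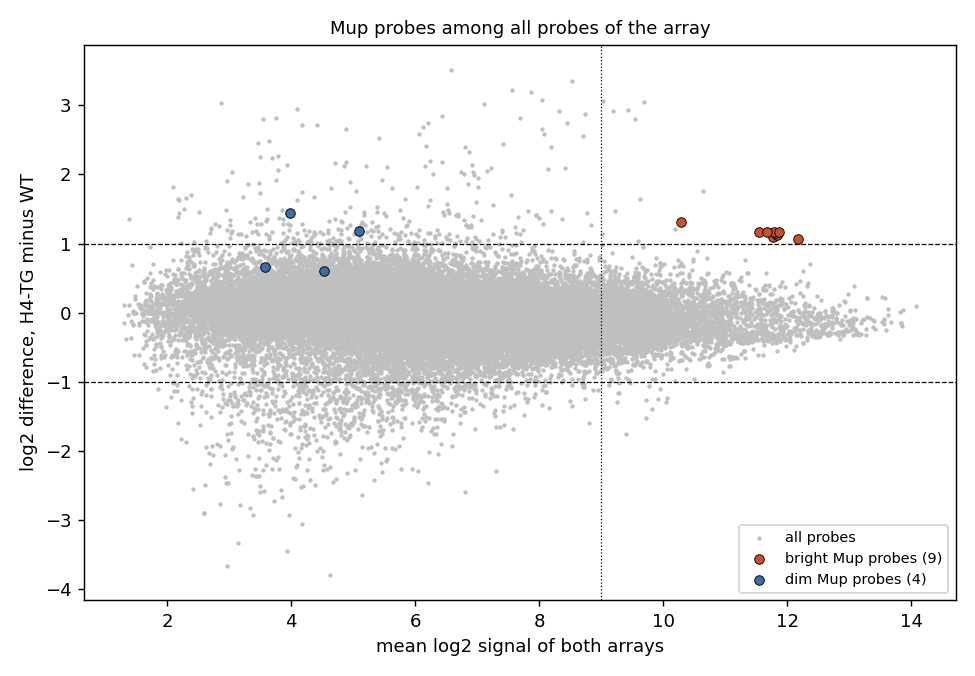
Log2 difference, H4-TG minus WT, against the mean log2 signal of both arrays for all 35556 probes (grey), with the 9 bright (orange) and 4 dim (blue) Mup probes; dashed lines mark 2-fold and the dotted line a mean signal of 9. The bright Mup probes lie between 1.07 and 1.31, above the upper dashed line, and the dim ones lie where the grey points spread more widely; all were chosen from a table of probes at least 1.5-fold higher.

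In rank on each array, which a common rescaling does not change, all 13 Mup probes stood higher on the H4-TG array than on the WT array. The choice of members on this contrast made that likely, so the direction is no finding. The bright probes lay in the top 1.22% to 7.08% of WT signals and in the top 0.262% to 2.17% of H4-TG signals. Probe 10513420 moved from rank 434 to rank 93. Mup20 moved from rank 33068 to 27790 and so remained among the dimmer probes of the array.

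Genes linked to Mup expression and cell type markers were looked for in the 822 rows of the authors' table with a single symbol. Its 47 rows with several symbols were not searched. A gene that is not listed has no value here, and it may still have passed 1.5-fold. The table holds 869 of the array's 35556 probes, so nothing is read from a list with few or no listed members. Of 20 hepatocyte markers, 2 were listed, both dim: the protease inhibitor Serpina1c at 3.28 on WT and 4.04 on H4-TG, and the fibrinogen chain Fgg at 3.36 and 4.38. Albumin (Alb), transthyretin (Ttr) and the apolipoproteins Apoa1 and Apoa2 were not listed. Because most hepatocyte markers have no value, the part of liver RNA in the Mup signal was not tested. Of 13 genes known as male-biased in mouse liver, 1 was listed, the cytochrome P450 Cyp4a12b, at 3.16 and 3.75. None of the 15 genes of growth hormone and STAT5 signalling, including Ghr, Stat5b, Igf1, Socs2 and Cish, was listed. Of 25 other secreted lipocalins and their relatives only apolipoprotein D (Apod) was listed, at 7.19 and 7.91, or 1.65-fold. Of 11 urine and scent proteins, none was listed apart from darcin, which is Mup20 and one of the members. None of 12 mammary and salivary gland markers was listed. A name that is not a current RefSeq symbol may have been missed. Current RefSeq symbols were held by 10 of the 11 urine and scent proteins and 11 of the 12 gland markers. The same was true of 23 of the 25 lipocalins and 12 of the 13 male-biased genes.

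None of 11 white adipocyte markers, such as Adipoq, Fabp4 and Plin1, was listed in the single-symbol rows, so the tissue label could not be set against them. Of 15 skeletal muscle markers, 15 were listed, and so were higher in H4-TG by the table's limit. All 15 were at least 2-fold higher, by a median of 7.17-fold, where the share over all 35556 probes was 0.892%. The mean log2 signal of the 15 markers was 7.18 on WT and 9.84 on H4-TG, the highest being that of Myl1 at 9.76 and 11.52. The part of muscle RNA in the Mup difference was not tested. In bulk tissue, fewer cells of a type and less RNA per cell cannot be told apart.

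Likeness was searched only among the 822 single-symbol rows of the authors' table, all higher in H4-TG by its limit, so unlisted probes of the array may lie nearer. Outside the Mup family, the 5 of these rows nearest to the bright Mup probes, by Euclidean distance between their pair of log2 signals and the bright probes' medians over the 2 arrays, were Acsl1, Cyp2e1, Prkar2b, Cox8b and Myl1, at distances from 0.76 to 1.68. The acyl-CoA synthetase Acsl1 had 11.95 on WT and 12.55 on H4-TG. The cytochrome P450 Cyp2e1 had 12.01 and 12.71, a difference of 0.70. Of the 5, only Myl1 exceeded the bright Mup probes in its difference, at 1.76, and the other four were below their lowest value, 1.07.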

How the data were processed

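Total RNA of inguinal fat was measured on the mouse gene array 1.0, 1 array per genotype with RNA of 4 animals, per the labels' protocols. The deposited value table holds log2 signals. The submitters' processing notes name MAS5, while its settings, the scaling between arrays and the genome build were not stated there or in the labels. The authors' deposited table of 869 probes gives rounded log2 signals of H4TG and CON with their linear fold change, per the file headers, and its signals lay within 0.005 of the value table.

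Values were used as deposited. Differences are H4-TG minus WT. With no replicates, no test was run, and the number of arrays limits precision. Named genes are all Mup probes, the listed members of 8 gene lists (1 further list is not reported here), and the 5 nearest single-symbol rows; other genes above a mean signal of 9 were named after their values were seen. The members and lists were chosen with earlier results of these data known. Symbols were updated through RefSeq of GRCm38 (746 rows by accession, 46 by symbol, 10 by synonym, 20 unmatched). Promoter windows were aligned end to end with free end gaps (match 2, mismatch -1, gap opening -4, extension -0.5), and identity counts internal gaps as mismatches. The scalings and the alignment were tested on simulated data. Alternatives were median centring, quantile normalization, centring along signal level (lowess, span 0.3), the authors' rounded signals, other brightness limits, counting each symbol set once and another fold threshold; a median that moved by at most 0.1 log2 units counted as unmoved. Python 3.11.15, numpy 2.4.6, pandas 2.3.3, statsmodels 0.14.6, Biopython 1.88 and matplotlib 3.10.9 were used.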

Additional observations from a re-analysis of the deposited data

How the results depend on the processing

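Each of the 13 Mup differences stayed positive under median centring, quantile normalization, centring along signal level and the authors' rounded signals, which says little, since members come from a table of higher probes. Centring along signal level moved the median over all Mup probes from 1.16 to 1.27 and that over the bright, or multi-symbol, probes to 1.28, since it subtracts the local trend, and probes in that signal range had a median difference of -0.13. By probe, the bright differences ran from 1.19 to 1.41 under it and the dim ones from 0.50 to 1.34; quantile normalization gave 1.17 to 1.41 and 0.57 to 1.42. The dim median ranged from 0.83 to 0.95. The count of Mup probes at least 2-fold higher was 11 under every scaling. Both other brightness limits left the same medians, as did counting each symbol set once, since all 13 sets differ, and keeping only bright multi-symbol probes. Over all probes, 317 were at least 2-fold higher; 1518 passed at 1.5-fold, and 112 passed at 2-fold at or above the median signal, both by construction. No paired analysis was possible because there is only 1 WT and 1 H4-TG array, which also means that neither can be dropped.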

Other observations

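The identifiers from 10513420 to 10513538 hold 14 probes of the value table, of which 12 are Mup probes of the authors' table and 2 carry no gene name in the files used here. Probe 10513529 reached a log2 signal of 5.43 on H4-TG, 1.35 times its linear WT signal. Probe 10513536 had 6.96 on WT and 7.68 on H4-TG, which is 1.65-fold higher and above the limit of the authors' table, yet it is not in that table. Whether either belongs to a Mup gene cannot be read from the files used here.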
